A study of Mus musculus with 6 samples.

Results

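Imprinted genes that govern growth of the mouse conceptus were followed in RNA from wild type samples and from samples homozygous for a knockout of Lphn2. The set comprised 10 genes chosen by symbol: H19, Igf2, Dlk1, Meg3, Peg3, Mest, Cdkn1c, Grb10, Plagl1 and Igf2r. All 10 were present among the 24421 gene symbols of each count table, and all 10 passed the filter on low counts that left 13848 genes for testing. Lphn2, now named Adgrl2, is the gene of latrophilin-2, a receptor of the adhesion class that couples to G proteins. The series title presents it as a surface marker of cardiac progenitors. The wild type group and the Lphn2-homo KO group held 3 libraries each, all of the C57BL/6N strain, labelled whole embryo and embryonic day 9.5. The comparison asks which transcripts differ in samples lacking the receptor. The labels leave unstated what was removed from Lphn2, whether a library came from a single embryo, or which samples shared a litter. Each sample description ends in a pair of numbers with no stated meaning, the first being 45 in 5 libraries and 32 in wild type replicate 1. Without that library edgeR called 0 of the 10 genes, as with it. It then called 0 of all 13993 tested genes in either direction, so this cannot show whether that library matters. P-values cover only the spread among these libraries, some of which may be technical.

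An imprinted gene is transcribed mainly from the copy inherited from a single parent, because methylation laid down in the egg or sperm marks the copies differently. Many such genes are highly active in the foetus, placenta and yolk sac and fall silent after birth. As a broad rule, genes read from the paternal copy promote growth of the conceptus and genes read from the maternal copy restrain it. Igf2, Dlk1, Peg3, Mest and Plagl1 are known as paternally expressed. H19, Meg3, Cdkn1c, Igf2r and, outside neurons, Grb10 are known as maternally expressed. The tags counted here do not show from which parental copy a transcript came.

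Levels are given as CPM, the count of a gene scaled to a fixed library total, after adjustment by the trimmed mean of M-values (TMM). Values of a group are listed in the order of replicates 1, 2 and 3. Each tag comes from the 3′ end of a transcript, so transcript length does not enter, but levels are compared only within a gene. Wild type libraries held 18352150 to 36213611 counts and knockout libraries 14476809 to 23887717. Adgrl2, the targeted gene, stood at 10.9, 7.56 and 16.0 CPM across wild type and at 5.49, 1.67 and 2.78 CPM across knockout libraries (edgeR quasi-likelihood test, adjusted p = 0.194, 0.0442 without knockout replicate 1, and 0.0214 with DESeq2). A 3′ tag may lie outside the deleted part, so these values do not check the labels. Knockout replicates 2 and 3 stood apart from the other libraries, and results are therefore also given without knockout replicate 1 and for that replicate alone. In RNA from mixed tissue, fewer cells of a type and less RNA per cell cannot be told apart.

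The 10 genes fell into 2 patterns. H19, Igf2, Dlk1, Meg3, Cdkn1c and Peg3 in knockout replicates 2 and 3 held between 0.305% and 4.6% of their wild type means, and in knockout replicate 1 between 30.7% and 82.0%. Mest, Grb10, Igf2r and Plagl1 in those 2 libraries were between 28.4% and 84.1% of theirs, though the counts of Mest are uncertain as described further on. Tested over all genes with the 3 knockout libraries together, 0 of the 10 genes passed an adjusted p of 0.05 in edgeR, against 0.0505% of all tested genes called lower and 0.00% called higher. At an unadjusted p under 0.05, edgeR gave 0 of the 10, beside 6.86% of all genes lower and 8.68% higher. Limma-voom also called 0 of the 10, with 6 lower and 0 higher at an unadjusted p under 0.05 beside 5.70% and 9.01% of all genes. DESeq2 gave a p for 8 of the 10 and none for Igf2 and Cdkn1c. It called 0 of these 8, beside 3.36% of all genes lower and 3.07% higher, and had 1 lower and 0 higher at an unadjusted p under 0.05 beside 8.16% and 6.56%. All 10 fitted log2 fold changes were negative, with a median of -1.77 beside -0.04 over all tested genes. Limma-voom, a linear fit to log2 CPM, gave more negative values than edgeR for the 6 low genes. It gave -3.51 for Igf2, -3.53 for H19 and -4.43 for Peg3, where edgeR gave -2.04, -1.80 and -2.61. In 5 of the 10 genes (Igf2, Dlk1, Peg3, Cdkn1c and Igf2r) all knockout values were below all wild type values, which held for 9.39% of all tested genes. The gap to knockout replicate 1 was small in several of these.

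**Figure D1:**
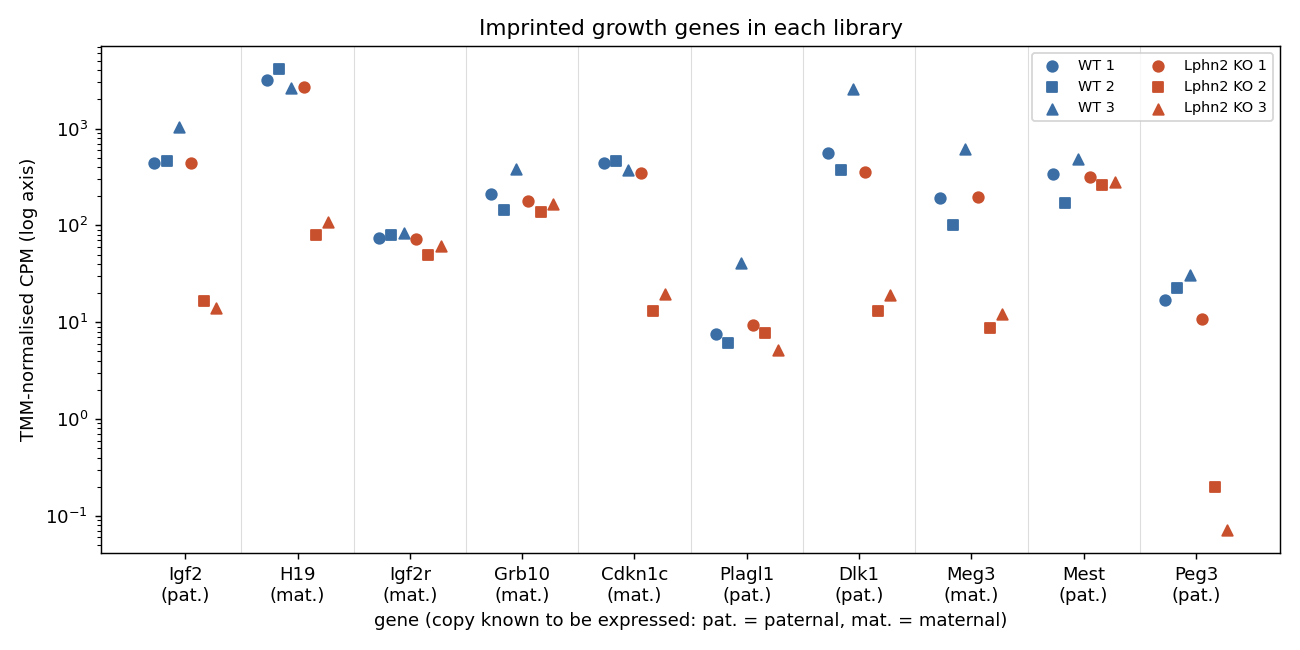
TMM-normalised CPM (log axis) of the 10 imprinted genes in each of the 6 libraries, blue for wild type and red for knockout, with the marker shape giving the replicate. Knockout replicates 2 and 3 lie far below the other 4 libraries for Igf2, H19, Cdkn1c, Dlk1, Meg3 and Peg3, and near them for Igf2r, Grb10, Mest and Plagl1.

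**Figure D2:**
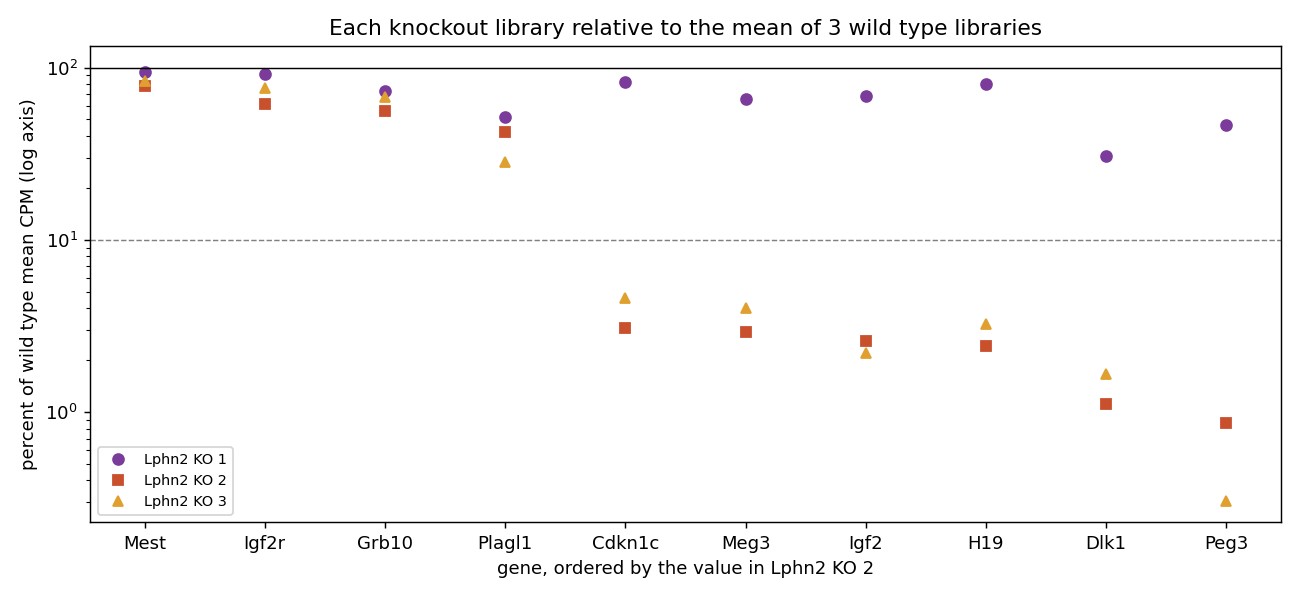
Level in each knockout library as a percent of the mean of 3 wild type libraries (log axis), with genes ordered by knockout replicate 2. The solid line marks the wild type mean and the dashed line 10% of it. In replicates 2 and 3, 6 genes lie below the dashed line and 4 above it, and in replicate 1 all 10 lie above it.

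Igf2 encodes insulin-like growth factor 2, the main foetal growth factor of its family, and lies on mm10 chromosome 7 from 142650766 to 142666816 (ENSMUSG00000048583.16, minus strand). Its level was 442, 459 and 1034 CPM across wild type and 439.8, 16.6 and 14.1 CPM across knockout libraries. Knockout replicate 1 thus lay just under the lowest wild type library, and the other two knockout libraries lay more than an order of magnitude lower. Means were 645 ± 337 and 157 ± 245 CPM (SD, n = 3 each), and the log2 fold change was -2.04 ± 1.27 (SE; edgeR adjusted p = 0.482). Igf2 overlaps Igf2os on the opposite strand, and whether counting used strand is not given in the sources used here.

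H19, the neighbour of Igf2 on chromosome 7 (142575529 to 142578143, ENSMUSG00000000031.16), yields a long non-coding RNA from the maternal copy and shares enhancers with Igf2. Its level was 3180, 4118 and 2623 CPM across wild type and 2659, 79.5 and 107 CPM across knockout libraries. Knockout replicate 1 lay within the wild type range, so the groups overlapped, while the wild type mean was 41.6 times the level in knockout replicate 2 and 30.8 times that in replicate 3. The log2 fold change was -1.80 ± 1.24 (SE; edgeR adjusted p = 0.523). H19 alone made up 0.277% to 0.368% of all counts in wild type libraries, 0.284% in knockout replicate 1, and 0.00780% and 0.0104% in knockout replicates 2 and 3. The H19 to Igf2 ratio of counts was 7.19, 8.97 and 2.54 in wild type and 6.05, 4.79 and 7.61 in knockout libraries. The pair thus kept a ratio within the wild type range in all knockout libraries, including those where both were low, and the lowest ratio was that of wild type replicate 3.

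Some of these genes also carry microRNAs, small RNAs that silence messages through a seed at their 5′ end. Mature microRNAs are not polyadenylated and were not measured here, so their sequences are shown only to identify what else each host transcript or gene encodes. The first pair lies within H19, the second within Igf2, the third within Mest and the last within Meg3, each on the strand of its host. Sequences are from RefSeq (GRCm38.p6), 5′ to 3′, with the seed (bases 2 to 8) in capitals, and no 2 of the 8 share a seed.
miR-675-5p: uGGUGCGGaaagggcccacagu
miR-675-3p: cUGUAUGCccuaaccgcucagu
miR-483-5p: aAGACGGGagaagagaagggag
miR-483-3p: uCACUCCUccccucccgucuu
miR-335-5p: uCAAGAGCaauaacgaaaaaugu
miR-335-3p: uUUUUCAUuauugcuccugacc
miR-770-5p: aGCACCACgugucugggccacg
miR-770-3p: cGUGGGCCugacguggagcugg

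Igf2r encodes the receptor that takes Igf2 into lysosomes for breakdown and so limits its supply (chromosome 17, 12682406 to 12769664, ENSMUSG00000023830.14). It was the least variable of the 10 genes among wild type libraries, at 74.8, 79.2 and 83.8 CPM, against 72.7, 48.9 and 60.6 CPM across knockout libraries. All knockout values lay below all wild type values, by little in replicate 1. The log2 fold change was -0.38 ± 0.19 (SE; edgeR adjusted p = 0.377), and -0.24 without knockout replicate 2. The Igf2 to Igf2r ratio of counts was 5.91, 5.80 and 12.3 in wild type libraries, 6.05 in knockout replicate 1, and 0.339 and 0.233 in knockout replicates 2 and 3. The supply of ligand transcript relative to this receptor's transcript was thus lower in those 2 libraries than in the other 4. Airn, the antisense transcript of this locus, overlaps Igf2r on the other strand.

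Grb10 encodes an adaptor that binds activated insulin and insulin-like growth factor receptors and dampens their signal (chromosome 11, 11930508 to 12038683, ENSMUSG00000020176.17). It stood at 210.4, 145 and 383 CPM in wild type and at 179, 137 and 166 CPM in knockout libraries. The knockout values were close together, and 2 of the 3 lay within the wild type range. The log2 fold change was -0.61 ± 0.35 (SE; edgeR adjusted p = 0.439), and -0.15 without wild type replicate 3.

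Cdkn1c encodes p57, a cyclin-dependent kinase inhibitor that halts the cell cycle during differentiation (chromosome 7, 143458339 to 143461050, ENSMUSG00000037664.13). Levels were 439, 463 and 373 CPM across wild type and at 348, 13.1 and 19.5 CPM across knockout libraries. Wild type libraries were close to each other, knockout replicate 1 was just below them, and replicates 2 and 3 held 3.07% and 4.6% of the wild type mean. The log2 fold change was -1.74 ± 1.14 (SE; edgeR adjusted p = 0.504). H19 and Cdkn1c, both maternally expressed and both on distal chromosome 7 under separate control regions, kept nearly the same ratio in every library. It was 7.25, 8.89 and 7.04 in wild type and 7.63, 6.08 and 5.50 in knockout libraries, a span of 1.62-fold while each gene itself spanned more than an order of magnitude.

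Plagl1 encodes a zinc finger transcription factor that arrests growth and acts on other imprinted genes (chromosome 10, 13060504 to 13131694, ENSMUSG00000019817.18). Its level was 7.57, 6.15 and 40.4 CPM in wild type and 9.29, 7.67 and 5.13 CPM in knockout libraries. Wild type replicate 3 was 6.57 times wild type replicate 2, and knockout replicates 1 and 2 lay above wild type replicates 1 and 2. The log2 fold change was -1.29 ± 0.73 (SE; edgeR adjusted p = 0.435), and it turned to 0.10 without wild type replicate 3.

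Dlk1 and Meg3 lie side by side on chromosome 12. Dlk1 (109452823 to 109463336, ENSMUSG00000040856.17) encodes a transmembrane protein related to Notch ligands that keeps progenitors undifferentiated, and Meg3 (109541001 to 109571726, ENSMUSG00000021268.17) yields a long non-coding RNA from the opposite parental copy. Dlk1 stood at 553, 375 and 2568 CPM across wild type and at 358, 13 and 19.2 CPM across knockout libraries. Its log2 fold change was -3.16 ± 1.40 (SE; edgeR adjusted p = 0.340), with wild type replicate 3 at 6.85 times replicate 2. Without wild type replicate 3 it was -1.81. Meg3 stood at 191, 99.75 and 614 CPM in wild type and at 198, 8.80 and 12.0 CPM in knockout libraries. Knockout replicate 1 lay above 2 of the wild type libraries for Meg3 (log2 fold change -2.05 ± 1.25 SE, edgeR adjusted p = 0.473, and -0.97 without wild type replicate 3).

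The Dlk1 to Meg3 ratio of counts was 2.89, 3.76 and 4.18 in wild type replicates 1 to 3 and 1.81, 1.48 and 1.6 in knockout replicates 1 to 3. All 3 knockout libraries lay below all 3 wild type libraries, and here knockout replicate 1 was on the side of the other knockout libraries. Exact 95% binomial intervals, which cover counting error only and use the Dlk1 count divided by its common divisor of 5, reached 1.91, 2.13 and 2.18 in the knockout libraries and began at 2.76, 3.49 and 4.11 in wild type. Among the 45 ratios between pairs of the 10 genes, 11 did not overlap between groups. All of these but Mest to Grb10 involved Dlk1 or Peg3, so they are not independent. The share over pairs of all tested genes was not computed, so whether 11 is many cannot be said. This ratio was singled out after its values were seen and has no test.

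**Figure D3:**
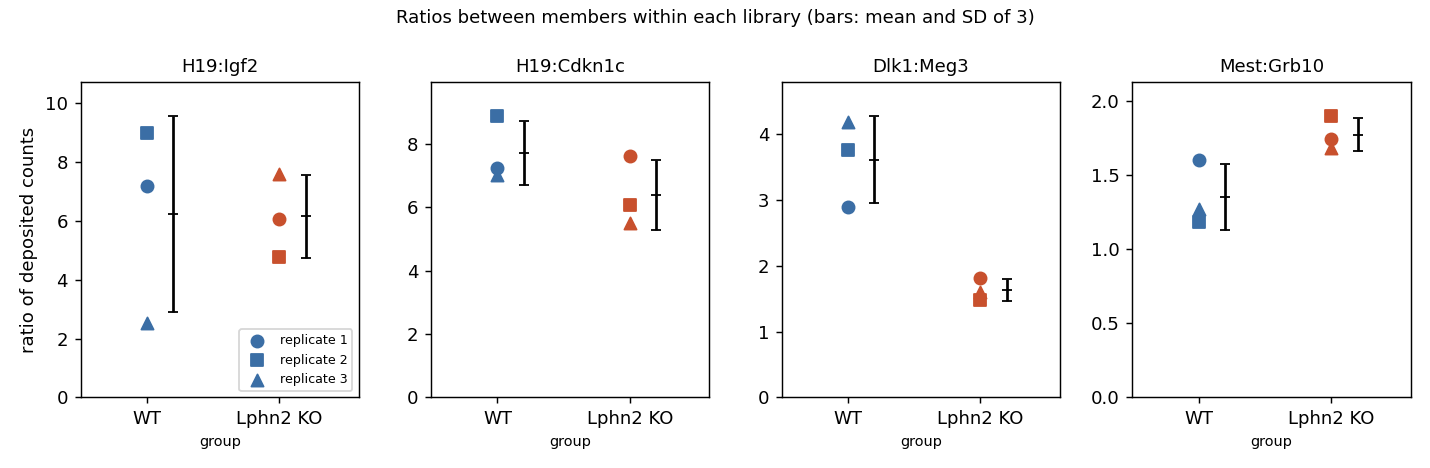
Ratios of deposited counts between pairs of imprinted genes within each library, by group, with the marker shape giving the replicate and black bars the mean and SD of 3 libraries. The Dlk1 to Meg3 ratio lies between 2.89 and 4.18 in wild type and between 1.48 and 1.81 in knockout libraries. The Mest to Grb10 ratio is higher in all knockout libraries, but the counts of Mest cannot be told apart from those of Copg2. The H19 ratios to Igf2 and to Cdkn1c overlap between the groups.

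The windows before the starts of Dlk1 and Meg3 are shown because the transcripts of this pair moved together while their ratio differed, beside those of Peg3, the gene lowest in knockout replicates 2 and 3 relative to wild type, and of Mest, whose counts stayed within the wild type range. Each window is the 250 bases before a RefSeq start (GRCm38.p6), 5′ to 3′ on the strand of the gene, and 8 of the 10 genes had an entry. They are chr12:109452573-109452822 (plus) for Dlk1, chr12:109540746-109540995 (plus) for Meg3, chr7:6730420-6730669 (minus) for Peg3 and chr6:30737800-30738049 (plus) for Mest. Capitals mark matches to TGCCGC, on either strand, the hexamer bound when methylated by ZFP57, which protects imprinted methylation.
Dlk1: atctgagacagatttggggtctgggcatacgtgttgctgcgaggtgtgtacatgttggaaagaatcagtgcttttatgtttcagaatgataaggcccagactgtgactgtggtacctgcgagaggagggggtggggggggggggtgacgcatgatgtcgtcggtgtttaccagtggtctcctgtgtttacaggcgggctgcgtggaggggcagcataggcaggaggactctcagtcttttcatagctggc
Meg3: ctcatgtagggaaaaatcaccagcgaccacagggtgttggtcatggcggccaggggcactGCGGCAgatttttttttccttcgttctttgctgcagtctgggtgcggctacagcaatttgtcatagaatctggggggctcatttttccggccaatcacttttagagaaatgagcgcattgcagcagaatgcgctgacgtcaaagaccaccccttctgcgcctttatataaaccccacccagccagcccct
Peg3: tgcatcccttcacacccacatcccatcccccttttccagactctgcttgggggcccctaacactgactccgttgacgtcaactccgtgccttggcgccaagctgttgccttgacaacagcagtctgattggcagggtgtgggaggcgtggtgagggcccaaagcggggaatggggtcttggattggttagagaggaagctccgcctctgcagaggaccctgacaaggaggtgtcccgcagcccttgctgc
Mest: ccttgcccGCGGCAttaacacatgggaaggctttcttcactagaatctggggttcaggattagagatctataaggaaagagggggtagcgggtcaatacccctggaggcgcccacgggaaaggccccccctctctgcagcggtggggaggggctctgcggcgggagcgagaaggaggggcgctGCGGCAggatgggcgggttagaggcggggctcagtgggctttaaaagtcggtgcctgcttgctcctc

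This Meg3 window holds 1 match and this Mest window 2, and those of Dlk1 and Peg3 hold none, where 8.68% of 32851 windows of the same length hold at least 1. The count depends on the start shown. Further windows of Meg3 (chr12:109545148-109545397) and Mest (chr6:30733256-30733505) hold 0, and another of Mest (chr6:30737803-30738052) holds 2. The Plagl1 window holds 1, and those of Igf2, Grb10 and Igf2r hold 0. Of the other motifs searched, the Meg3 window has 2 matches to TATAAA (in 12.4% of windows), the Mest window has 1 match to GGGCGG (in 32.7%), and none has GCCATNTT (in 3.91%), both strands being read. CpG counts were 8 for Dlk1, 10 for Meg3, 8 for Peg3 and 14 for Mest, against a median of 6 over all windows.

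Mest encodes an enzyme of the hydrolase fold made in mesoderm (chromosome 6, 30723547 to 30748465, ENSMUSG00000051855.15). Its level was 337, 172 and 486 CPM in wild type and 312, 261 and 279 CPM in knockout libraries, all 3 of them inside the wild type range. The log2 fold change was -0.22 ± 0.35 (SE; edgeR adjusted p = 0.782), and 0.16 without wild type replicate 3. Copg2, named after its values were seen, encodes a subunit of the coat of Golgi vesicles. It lies on the opposite strand, and its 3′ end overlaps that of Mest over 912 bases (30747554 to 30748465). The ratio of Mest to Copg2 counts was 3.04, 3.12 and 3.07 in wild type and 3.04, 3.01 and 3.00 in knockout libraries. It varied by 1.04-fold while Mest itself varied by 2.83-fold. The 6 Mest counts shared a divisor of 3, the number of its curated RefSeq transcripts, and the ratio to Copg2 was close to that number. Whether the same tags were counted for both genes was not tested. Counts of these 2 genes therefore cannot be told apart without knowing how strand was handled, and the level of Mest is uncertain in each library. The Mest to Grb10 ratio was 1.6, 1.18 and 1.27 in wild type and 1.74, 1.90 and 1.68 in knockout libraries, higher in all 3 knockouts by a small step over wild type replicate 1. The Copg2 to Grb10 ratio was likewise higher in all 3 knockouts. It was 0.527, 0.379 and 0.414 in wild type and 0.572, 0.632 and 0.560 in knockout libraries. The difference therefore cannot be assigned to Mest.

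Peg3 encodes a large zinc finger protein with roles in growth and maternal behaviour (chromosome 7, 6703892 to 6730431, ENSMUSG00000002265.16). Levels were 17.1, 22.6 and 30.4 CPM in wild type and 10.8, 0.200 and 0.0713 CPM in knockout libraries. The last values rest on 3 counts and 1 count, which place them at 0.857% (95% exact Poisson interval 0.177% to 2.5%) and 0.305% (0.00773% to 1.70%) of the wild type mean. All knockout values were below all wild type values, with a log2 fold change of -2.61 ± 1.36 (SE; edgeR adjusted p = 0.401). The start of Usp29, a paternally expressed gene read in the other direction and named after its values were seen, lies inside the Peg3 window shown above, at 6730578. Usp29 stood at 7.61, 1.71 and 24.9 CPM in wild type and at 2.51, 0 and 0.143 CPM in knockout libraries, again lowest in knockout replicates 2 and 3.

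Leaving out knockout replicate 1 split the genes as the levels had. Compared with 3 wild type libraries, knockout replicates 2 and 3 gave 6 of the 10 genes as lower (edgeR, adjusted p under 0.05), where 3.27% of 14249 tested genes were called lower and 1.77% higher. These 6 were Peg3 (log2 fold change -7.35, adjusted p = 0.00669), Dlk1 (-6.16, adjusted p = 0.0350), Igf2 (-5.38, adjusted p = 0.0121), H19 (-5.15, adjusted p = 0.00669), Meg3 (-4.84, adjusted p = 0.0381) and Cdkn1c (-4.70, adjusted p = 0.00669). Plagl1, Grb10, Igf2r and Mest had log2 fold changes of -1.48, -0.69, -0.53 and -0.29, and none of them passed. With knockout replicate 1 alone against wild type, 0 of the 10 were called (edgeR, 0.00% of all tested genes lower; 0 of the 10 at an unadjusted p under 0.05), and their log2 fold changes lay between -1.67 for Dlk1 and -0.06 for Mest. That lone sample is assumed to vary like the wild type group. The 6 calls rest on a choice among the knockout libraries, and the 3 libraries together do not give them.

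**Figure D4:**
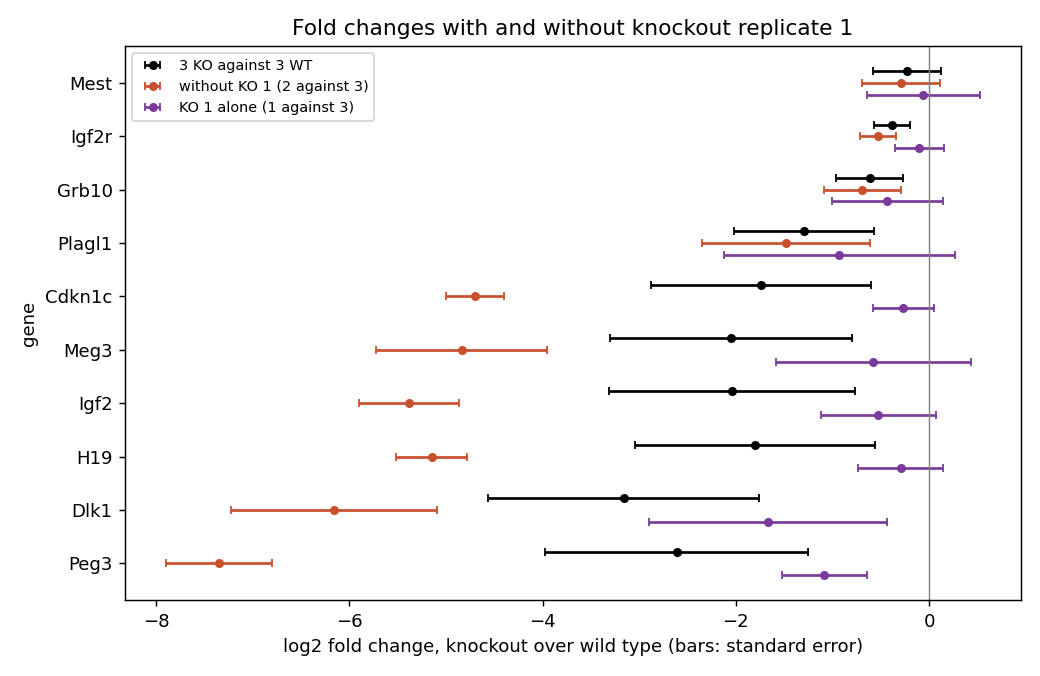
Log2 fold change of knockout over wild type with its standard error for the 10 imprinted genes, from the 3 against 3 comparison (black), without knockout replicate 1 (red) and with that replicate alone (purple). Without replicate 1 the lower 6 genes lie between -7.35 and -4.70, and with it alone all 10 lie between -1.67 and -0.06.

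The parental copy did not set the 2 patterns apart. Of the 5 paternally expressed genes, 3 (Igf2, Dlk1 and Peg3) and, of the 5 maternally expressed genes, 3 (H19, Meg3 and Cdkn1c) were under 10% of the wild type mean in both knockout replicates 2 and 3. Over all tested genes 4.33% were under that line, which was drawn after the values were seen. The median log2 fold change was -2.04 in the paternal set and -1.74 in the maternal set. All knockout values were below all wild type values in 3 of 5 paternal and 2 of 5 maternal genes. Over all tested genes this held for 9.39%, and the opposite order for 12.1%. No member of either set passed the test over all genes.

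Markers of the tissues that make up a conceptus also differed between libraries. Under 10% of the wild type mean in both knockout replicates 2 and 3 were 11 of 13 tested trophoblast markers, 11 of 14 yolk sac and 8 of 11 primitive erythroid markers, 4 of 12 tested markers of embryonic mesoderm and nerve, and 0 of 12 decidual markers. The share over all tested genes was 4.33%. The 15 trophoblast markers, such as the placental lactogen Prl3d1 (1 of them, Ascl2, is also imprinted), summed to 2829 to 10852 CPM in wild type, 7102 CPM in knockout replicate 1, and 122 and 328 CPM in knockout replicates 2 and 3, where 4 and 3 of the 15 were at 0. The 14 markers of yolk sac visceral endoderm summed to 490.4 to 747 CPM in wild type and to 293, 141 and 161 CPM across knockout libraries, with 5 and 8 of them at 0 in the last pair. Sox17, which also marks endothelium, made up 115 and 123 CPM of the last sums, and the other 13 markers summed to 437 to 702 CPM in wild type, 205 CPM in knockout replicate 1, and 26.0 and 38.3 CPM in replicates 2 and 3. The 11 primitive erythroid markers summed to 5223 to 11467 and 1593 to 2544 CPM, counting the identical values of Hba-a1 and Hba-a2 under both names. Without these adult globin genes, the other 9 summed to 1495 to 2226 CPM in wild type and to 755, 76.9 and 56.3 CPM across knockout libraries. The 16 markers of embryonic mesoderm and nervous tissue summed to only 71.2 to 375 CPM in wild type and 29.3 to 53.6 CPM in knockout libraries, and the early heart factor Nkx2-5 had 0 counts in all knockout libraries and in wild type replicate 2. The 12 markers of the maternal decidua, all above 0 in every library, summed to 20114 to 36117 and 7709 to 13644 CPM. Prl8a2 alone stood at 14989, 28746 and 17981 CPM in wild type, most of those sums, and at 2900, 1279 and 5335 CPM in knockout libraries. Fitted log2 fold changes were positive for 9 of the 12 markers and negative for 3. Of the 12, 7 were higher in every knockout library than in every wild type library and 3, Prl8a2 among them, were lower. Over all tested genes, 12.1% were higher in this way and 9.39% lower. Libraries labelled whole embryo thus held decidual transcripts too. The part of tissue makeup in the levels of the 10 genes was not tested.

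**Figure D5:**
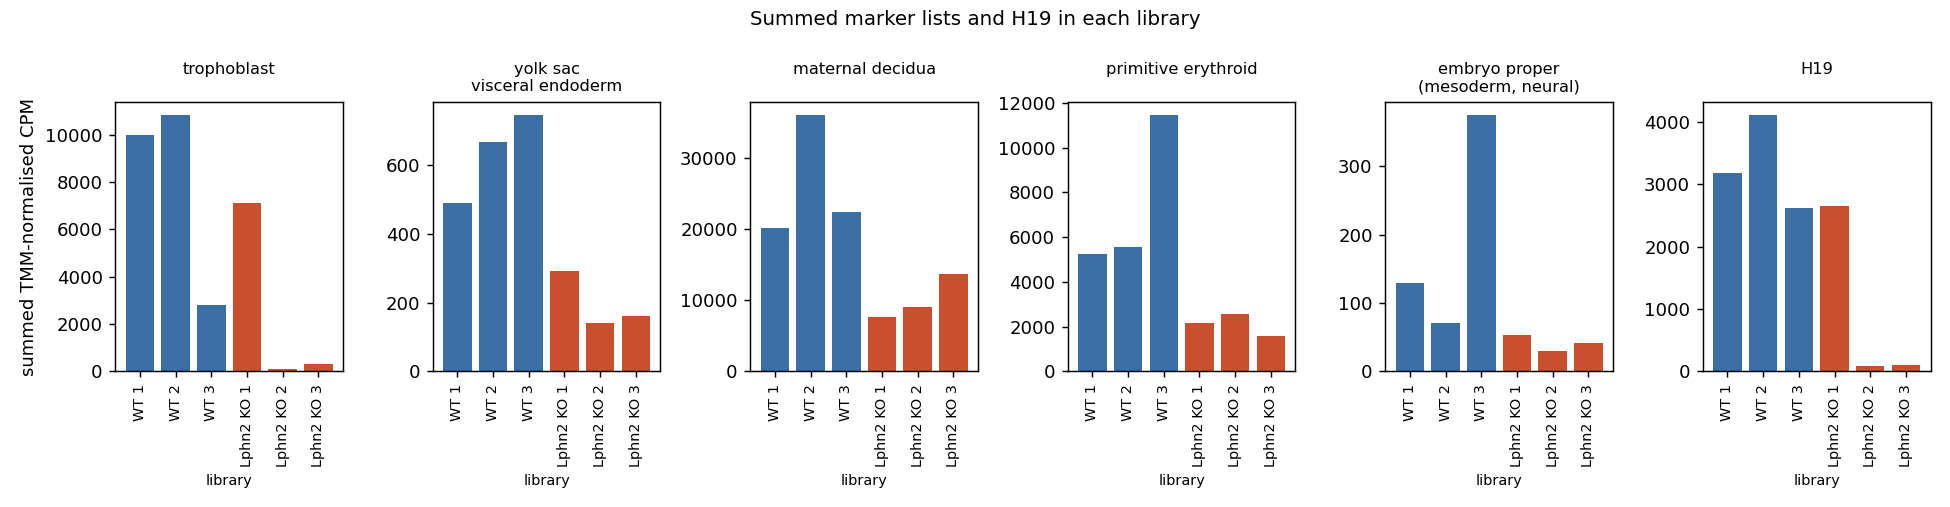
Summed TMM-normalised CPM of 5 marker lists and, in the last panel, the CPM of H19 in each library, blue for wild type and red for knockout, each panel with its own axis from 0. Trophoblast markers and H19 are both within the wild type range in knockout replicate 1, at 7102 and 2659 CPM, and both low in replicates 2 and 3. The decidual sum is 20114 to 36117 CPM in wild type, most of it Prl8a2. It is lower in all knockout libraries, at 7709 to 13644 CPM, with its lowest value in knockout replicate 1. Of the 12 decidual markers, 7 are higher in every knockout library than in every wild type library and 3 lower. Over all tested genes 12.1% are higher in this way and 9.39% lower.

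Other imprinted genes showed both patterns too, by lists whose members were chosen with earlier results known. Of 25 further paternally expressed genes 24 were tested, and of 23 further maternally expressed genes 21, and 0 passed in either direction (edgeR). At an unadjusted p under 0.05, edgeR gave 7 lower and 1 higher in the paternal list, and 1 lower and 1 higher in the maternal list. Over all tested genes 6.86% were lower and 8.68% higher at that p. The median log2 fold changes of the paternal and maternal lists were -1.35 and -0.22. Under 10% of the wild type mean in both knockout replicates 2 and 3 were 9 of the 24 and 6 of the 21, beside 4.33% of all tested genes. Peg10, a domesticated retroviral gene needed for the placenta, stood at 127, 177 and 51.8 CPM in wild type and at 157, 0.533 and 3.42 CPM in knockout libraries. Phlda2, which restrains growth of the placenta and lies near Cdkn1c, stood at 53.1, 103 and 59.2 CPM and at 119.9, 1.53 and 0.642 CPM. For both genes knockout replicate 1 was within or above the wild type range, and the log2 fold changes of -1.14 and -0.81 (adjusted p = 0.751 and 0.821) became 0.42 and 0.76 with that replicate alone. Without it they were -5.92 and -6.03 (edgeR adjusted p = 0.0304 and 0.0109), in a comparison chosen from the values where 3.27% of all tested genes were called lower. Nnat, a small membrane protein of brain, had the most negative value of both lists, at 99.99, 28.3 and 845 CPM against 25.1, 2.00 and 3.92 CPM (-4.95 ± 1.52 SE, adjusted p = 0.217, and 0.0287 with DESeq2). Slc22a2, an organic cation transporter beside Igf2r, stood at 2.10, 3.47 and 0.679 CPM against 0.745, 0.267 and 0.428 CPM (-2.07, adjusted p = 0.278).

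Of the neighbours of the 10 genes in their clusters, those named here did not pass over the 3 knockout libraries in edgeR. On chromosome 12 the maternally expressed non-coding RNAs Rian and Mirg, downstream of Meg3 and were named after their values were seen. Rian stood at 118, 95.7 and 246 CPM in wild type and at 132, 4.0 and 3.35 CPM in knockout libraries. Mirg stood at 25.9, 18.3 and 42.5 CPM and at 42.5, 0.933 and 2.35 CPM. Neither passed over the 3 knockout libraries (edgeR adjusted p = 0.564 and 0.742), and both did without knockout replicate 1 (0.0126 and 0.0244). That choice of libraries was made after the values were seen, and 3.27% of all tested genes were called lower with it. Dio3, at the far end of this cluster, encodes the deiodinase that inactivates thyroid hormone. Its levels were 579, 366 and 288 CPM in wild type and 896, 1074 and 905 CPM in knockout libraries. Every knockout library lay above every wild type library, which 12.1% of tested genes showed, with a log2 fold change of 1.22 ± 0.28 (SE; edgeR adjusted p = 0.170, and 0.00183 with DESeq2). On chromosome 7 the potassium channel gene Kcnq1, beside Cdkn1c, stood at 2.35, 0.609 and 1.02 CPM against 3.41, 5.33 and 3.21 CPM (1.57 ± 0.59 SE, adjusted p = 0.272). Osbpl5, a lipid-binding protein gene of the same cluster named after its values were seen, stood at 224, 305 and 175 CPM against 204, 325 and 414 CPM. Gatm, an imprinted gene of chromosome 2 whose enzyme makes the creatine precursor, stood at 420.4, 549 and 384 CPM against 446, 591 and 884 CPM (0.50 ± 0.29 SE, adjusted p = 0.438).

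In the insulin-like growth factor pathway 24 of 27 listed genes were tested and 0 passed in either direction (edgeR), with a median log2 fold change of -0.26. At an unadjusted p under 0.05 in edgeR, 1 was higher and 4 were lower, beside 8.68% and 6.86% of all tested genes. Igf1, the second ligand, stood at 285, 129 and 314 CPM in wild type and 152, 160.1 and 311 CPM in knockout libraries, and the groups overlapped. Igf1r, the receptor through which both ligands signal, stood at 19.8, 15 and 36.4 CPM against 14.9, 8.13 and 6.70 CPM (-1.25 ± 0.43 SE, adjusted p = 0.251), with knockout replicate 1 just under wild type replicate 2. Insr, the insulin receptor, was level at 15.5 ± 1.81 and 15.5 ± 1.52 CPM. The binding proteins Igfbp5 and Igfbp2 had the smallest p of the list. Igfbp5 stood at 64.7, 12.2 and 59.05 CPM against 8.94, 10.8 and 12.8 CPM (-2.07 ± 0.57 SE, adjusted p = 0.191), and Igfbp2 at 114, 28.5 and 125 CPM against 29.8, 23.3 and 26.2 CPM (-1.75 ± 0.50 SE, adjusted p = 0.194). In these 2 genes wild type replicate 2 lay among the knockout libraries, and both passed with DESeq2 (adjusted p = 0.00443 and 0.00725) and without that replicate (adjusted p = 0.0416 for both).

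The Igf2bp genes encode proteins that bind the messages of Igf2 and H19, and were named after their values were seen. Igf2bp1 stood at 171, 129 and 132 CPM in wild type and at 134, 1.07 and 2.78 CPM in knockout libraries. Igf2bp2 stood at 73.4, 59.35 and 72.6 CPM against 57.45, 2.00 and 4.63 CPM, and Igf2bp3 at 19.9, 13.3 and 26.2 CPM against 12.2, 0.467 and 0.356 CPM. All 3 thus had the pattern of H19 and Igf2 themselves, with adjusted p between 0.420 and 0.619 over the 3 knockout libraries in edgeR and between 0.00669 and 0.0109 without knockout replicate 1. In the latter comparison 3.27% of all tested genes were called lower. Both the genes and that choice of libraries followed from values already seen, so these p-values are no independent support.

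Genes that protect imprinted marks gave 0 passing members of 14 tested (edgeR; 0 at an unadjusted p under 0.05), with a median log2 fold change of -0.15. Trim28, a corepressor that maintains imprints, stood at 54.3, 51.3 and 85.6 CPM against 50.55, 41.6 and 39.35 CPM (-0.54 ± 0.24 SE, adjusted p = 0.343), and Tet1, an enzyme of demethylation, at 2.68, 1.10 and 8.52 CPM against 1.73, 0 and 0.428 CPM (-2.46, adjusted p = 0.392). Of 8 tested relatives of Cdkn1c, Dlk1 and Plagl1 and their cell cycle partners 0 passed (edgeR). At an unadjusted p under 0.05 in edgeR, 1 was higher and 0 were lower, beside 8.68% and 6.86% of all tested genes. Cdkn1a, which encodes the related inhibitor p21, stood at 56.2, 93.2 and 61.8 CPM against 80.6, 119 and 145 CPM (0.71 ± 0.29 SE, adjusted p = 0.306). It did not have the pattern of Cdkn1c in knockout replicates 2 and 3. Cdk4, a kinase of early cell cycle, stood at 69.0, 71.5 and 98.6 CPM against 57.3, 64.5 and 61.1 CPM (-0.39 ± 0.19 SE, adjusted p = 0.375).

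Genes whose profile over the 6 libraries was most like that of H19 were Cse1l, Fscn1, Spink1, Stra6 and Maged2, with Pearson r of log2 CPM from 0.996 to 0.99990. For Dlk1 they were Bdh1, Slit2, Ube2e3, Ubac1 and Cdc7, with r from 0.992 to 0.995. These r describe 6 libraries of which knockout replicates 2 and 3 lie apart, among genes averaging at least 10 CPM. They say nothing of the size of the difference: Cse1l stood at 70.9, 73.4 and 69.2 CPM in wild type and 68.7, 42.5 and 44.1 CPM in knockout libraries. Stra6, the receptor for retinol-binding protein, stood at 22.5, 19.7 and 11.1 CPM in wild type and 14.1, 0 and 0 CPM in knockout libraries. Slit2, an axon guidance ligand, shared with Dlk1 its highest value in wild type replicate 3, at 106 CPM against 25.4 and 18.0 CPM in replicates 1 and 2 and 11.6, 0.267 and 0.855 CPM in the knockouts.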

How the data were processed

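The authors deposited 1 table for each sample, with raw counts of tags by gene symbol and no normalization. Per the labels' protocols, 500 ng of total RNA entered the Lexogen QuantSeq 3′ end kit. Per the submitters' processing notes, Bowtie2, edgeR and mm10 were used; for their versions, the annotation, the counting program and its use of strand the sources used here give nothing. The 6 counts of Dlk1, Mest and H19 shared divisors of 5, 3 and 2, the numbers of their curated RefSeq transcripts, and those of Igf2 and Cdkn1c divisors of 3 and 2. Their counting error is therefore larger than the counts show.

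Genes were kept by filterByExpr (minimum count of 10), libraries scaled by TMM, and groups compared by the quasi-likelihood test of edgeR 4.0.16 in R 4.3.3 with no covariate. P-values were adjusted by Benjamini-Hochberg over 13848 genes with a threshold of 0.05. The scripts were tested on simulated data. DESeq2 1.42.0 and limma-voom (limma 3.58.1), other scalings and filters, a replicate block and left-out libraries were alternatives. Log2 CPM for likeness used a prior count of 2. Positions are from GENCODE M21 on mm10. The members and lists were chosen with earlier results of these data known. Named by rule beside the 10 genes were Adgrl2 and, from each further list, its passing members or else the 2 with the smallest p. The rule also named Igf1, Igf1r, Insr, Peg10, Phlda2, Gatm, and the 5 genes most like each of H19 and Dlk1. Copg2, Usp29, Rian, Mirg, Osbpl5, Igf2bp1, Igf2bp2 and Igf2bp3 were outside the rule and named after their values were seen.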

Additional observations from a re-analysis of the deposited data

How the results depend on the processing

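Over 18 alternatives, 0 of the 10 genes passed except without knockout replicate 1, where 6 did. DESeq2 gave no p for Igf2 and Cdkn1c, nor for Phlda2, Igf2bp1 and Igf2bp2, so those are not judged by it. Leaving out 1 library in turn gave 0 to 466 genes lower, 0 to 252 higher, and 0 to 6 of the 10 imprinted genes lower, and the highest counts came without knockout replicate 1. Against 7 lower genes in the 3 against 3 comparison there were 0 with 1 symbol kept per identical set of counts and 0 with knockout replicate 1 alone. DESeq2 called 501 lower and 459 higher. Its median log2 fold change was -0.16 over all genes with counts, without the filter. In edgeR it was -0.04 over the filtered genes and -0.13 with no filter. The labels number replicates alike in both groups. With that number as a replicate block 0 genes were lower, 5 of the 10 had an unadjusted p under 0.05 beside 6.79% of all genes lower, and Igf2, H19 and Peg3 stood at -4.02, -3.81 and -4.74. Limma-voom moved the first pattern in the same direction. Deviations of same-numbered libraries correlated at 0.127, -0.0238 and 0.0706, with 4 of 6 libraries closest to their own number. These values do not settle whether the numbers pair samples. The labels do not state a pairing, so the main fit had no block.

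Without 1 library, Mest ranged from -0.52 to 0.16, Plagl1 from -1.69 to 0.10, Copg2 from -0.51 to 0.18 and Insr from -0.078 to 0.088. Insr further turned from -0.0024 to 0.0040 with library size only, 0.012 with no filter, 9.9e-05 with the replicate block and 0.011 with the common divisor removed. With knockout replicate 1 alone, Insr, Peg10, Phlda2 and Mirg stood at 0.11, 0.42, 0.76 and 0.58 and Osbpl5 at -0.18. The cause was not tested. Peg3 at 3 counts and 1 count limits what depth can show in knockout replicates 2 and 3.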
